A study of Mus musculus with 3 samples.

Results

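Hepatic gene expression of mice fed a high-fat diet with an iron supplement (HF+SFC) was compared with that of mice fed the high-fat diet alone (HF). All mice were male C57BL/6J, an inbred strain that becomes obese on fat-rich food, and their livers were collected after 15 weeks on a diet begun at 6 weeks of age. The high-fat diet, D12492, supplied 60% of its energy as fat, and the supplement was sodium ferrous citrate (SFC), a soluble ferrous salt, at 0.023% by weight. A further group (Control) received D12450B with 10% of energy from fat and is given beside the comparison. According to the study's methods, both base diets already held some iron. Each of the 3 groups was read on 1 Affymetrix mouse array, hybridised with the mixed cDNA of all mice of that group, and how many mice went into a mix is not known here. The labels state an age of 21 months, which does not match the feeding scheme and was not used. With 1 pooled array per group, no difference described here has a replicate check and no p-value can be given.

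The array reads each transcript through 1 or more probe sets, and each value is a MAS5 signal, a linear intensity scaled to one target per array. A probe set was taken into the comparison where its signal was 200 or more in HF, in HF+SFC or in both. This left 16271 of the 45037 probe sets other than controls (36.1%), of which 14852 named a single gene. They covered 9147 of the 18193 genes named by the array, 5509 through 1 probe set and 3638 through 2 or more. The measure was the log2 ratio of HF+SFC over HF, taken for a gene as the median over its probe sets in the comparison. "Higher" and "lower" below refer to HF+SFC relative to HF at or past 1.5-fold, and values within 1.5-fold are given as numbers without a direction being claimed from them. Where 3 signals of a probe set stand together, they are those of the Control, HF and HF+SFC arrays in that order, and a value in brackets after them is the log2 ratio of HF+SFC over HF.

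Iron is carried in the blood by transferrin, stored in cells as ferritin and built into heme and iron-sulfur clusters, which the respiratory chain and many oxidases need. Hepatocytes sense iron through the BMP-SMAD pathway and answer with hepcidin, a hormone that removes the iron exporter ferroportin from cell surfaces. Liver is also the main site of cholesterol synthesis, a pathway switched on as a unit by the transcription factor SREBP-2 when membranes run short of sterol. Besides hepatocytes it holds resident macrophages (Kupffer cells), stellate cells that store vitamin A and lay down matrix, endothelium and lymphocytes. RNA of whole liver sums over all of them, so that fewer cells of a type and less RNA per cell cannot be told apart.

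The arrays of HF and HF+SFC were close to each other. The median log2 ratio over genes was 0 to 2 decimals, 49.6% of genes lay above 0, and 95.4% lay inside 1.5-fold. Higher genes numbered 128 (1.4% of 9147) and lower genes 293 (3.2%). By probe set, 283 (1.74%) were higher and 619 (3.8%) lower. Lower genes thus made up 69.6% of those past the threshold, but this split depended on how the arrays were put on one scale, and the share of lower genes was 68.9% after centring on the median, 56.7% after quantile normalisation and 44.2% after a lowess fit of ratio on signal. Signal decided much of what passed. Of the 14842 probe sets at 200 or more on both arrays, 384 (2.59%) were past 1.5-fold, whereas of the 1429 at 200 on one array only, which had to differ to be so, 518 (36.2%) were. Of those 1429, 943 reached 200 in HF and 486 in HF+SFC. The 329 probe sets just inside the limit, with a brighter signal of 200 to 210, had a median absolute log2 ratio of 0.298, and the 369 just outside, at 190 to 200, had 0.279.

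**Figure D1:**
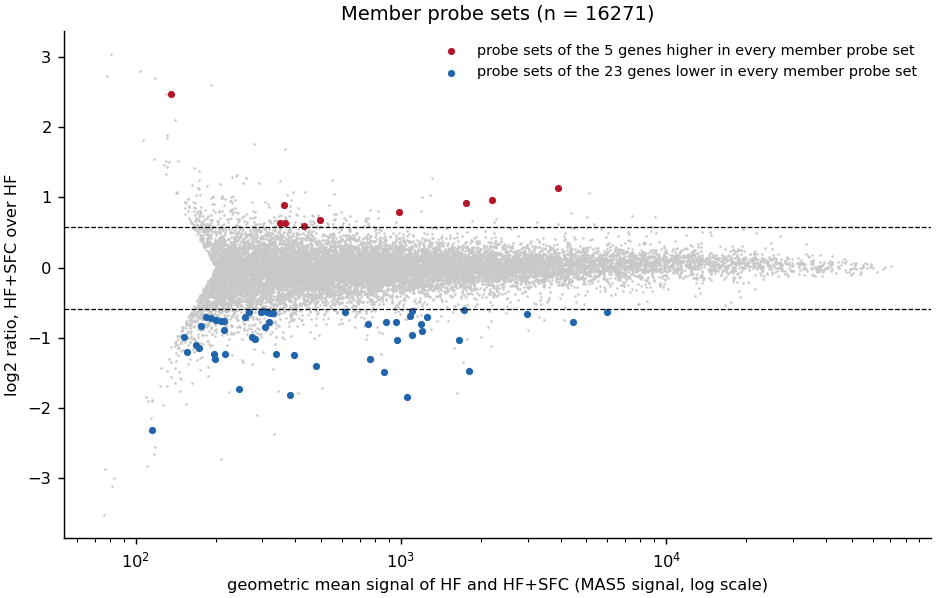
Log2 ratio of HF+SFC over HF (vertical axis) against the geometric mean signal of the 2 arrays (horizontal axis, log scale) for the 16271 probe sets in the comparison, each a point, with dashed lines at 1.5-fold. Coloured points are the probe sets of genes whose probe sets all passed 1.5-fold in one direction, and the cloud widens towards low signal.

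With no replicate arrays, the one spread that could be computed was that between probe sets of a gene on the same 2 arrays. The pooled SD of log2 ratios within a gene was 0.26 over the 3638 genes with 2 or more probe sets, 0.36 among probe sets with a mean signal under 500, 0.18 at 500 to 2000 and 0.11 at 2000 or more. This spread covers differences in reading within the 2 arrays, not those between mice, pools or arrays, and so sets no limit on how far 2 pools of one diet would differ. The 18 hybridisation spikes had a median log2 ratio of 0.02 and none passed 1.5-fold. The 24 poly-A spikes, which are added to the RNA before labelling, had a median of -0.25, and 2 passed. Ratios of 3′ to 5′ probe sets, a sign of RNA integrity, were 1.65 in HF and 1.73 in HF+SFC for the actin gene Actb, 0.680 and 0.708 for the glycolytic gene Gapdh, and 3.23 and 3.89 for pyruvate carboxylase (Pcx). The part of these differences in the results below was not tested.

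Agreement between probe sets was uncommon. Of the genes with 2 or more probe sets, 408 had at least 1 past 1.5-fold, and in 28 of these (6.86%) all probe sets passed in one direction. The 5 higher genes (0.137% of 3638) were Mvk, Idi1 and Cyp51, which encode enzymes of cholesterol synthesis, Avpr1a, the vasopressin receptor of hepatocytes, and Clec2h, a C-type lectin. The 23 lower genes (0.632%) included the macrophage scavenger receptor Marco, hexokinase 3 (Hk3), which is found in myeloid cells, the MHC class II chains H2-Aa and H2-Ab1, the chemokines Cxcl9 and Cxcl13, the interferon-inducible GTPases Gbp2 and Gbp6, the collagen gene Col1a2, the intermediate filament gene Vim, lipoprotein lipase (Lpl) and the transcriptional repressor Bcl6. Median log2 ratios ran from 0.63 for Clec2h to 1.69 for Mvk among the higher genes and reached -1.80 for Hk3 among the lower ones. These 28 genes were read by 61 probe sets in the comparison and by 8 more under 200, of which 7 lay on the same side of 0 and none passed 1.5-fold the other way. All probe sets were at 200 or more on both arrays for 14 of the 28, that is, 4 higher and 10 lower genes. All 28 kept their agreement after median centring, 24 after quantile normalisation and 19 after lowess. The 5 higher genes and 14 of the lower ones did so under all 3 scalings.

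Other genes of this kind belonged to none of the groups below. Hk3 read 83.6, 257 and 51.8 (-2.31) and 269, 313 and 127 (-1.30), both from dim probe sets that entered through HF alone. Clec2h, the lectin, read 104, 280.1 and 434 (0.63) and 124, 294 and 456 (0.63), and its ratios were the closest pair among the higher genes. Fyb, an adaptor of T cells and myeloid cells, was lower with a median of -0.74, the secreted glycoprotein gene Fstl1 with -0.71, the serine protease gene Prss23 with -0.82 and the actin-associated Pdlim7 with -0.80. The zinc finger gene Zfp329 had -0.98 and the transmembrane protein gene Tmem164 -0.70. These 6 genes lost their agreement after lowess, as did Cxcl13, Clec4n and Irf8. Both probe sets of Pdlim7 and both of Zfp329 in the comparison entered through HF alone. Mndal, an interferon-inducible gene of a family of close relatives, read 892, 1144 and 669.9 (-0.77) and 1172, 1367 and 893 (-0.61), and it was named after its values were seen.

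**Figure D2:**
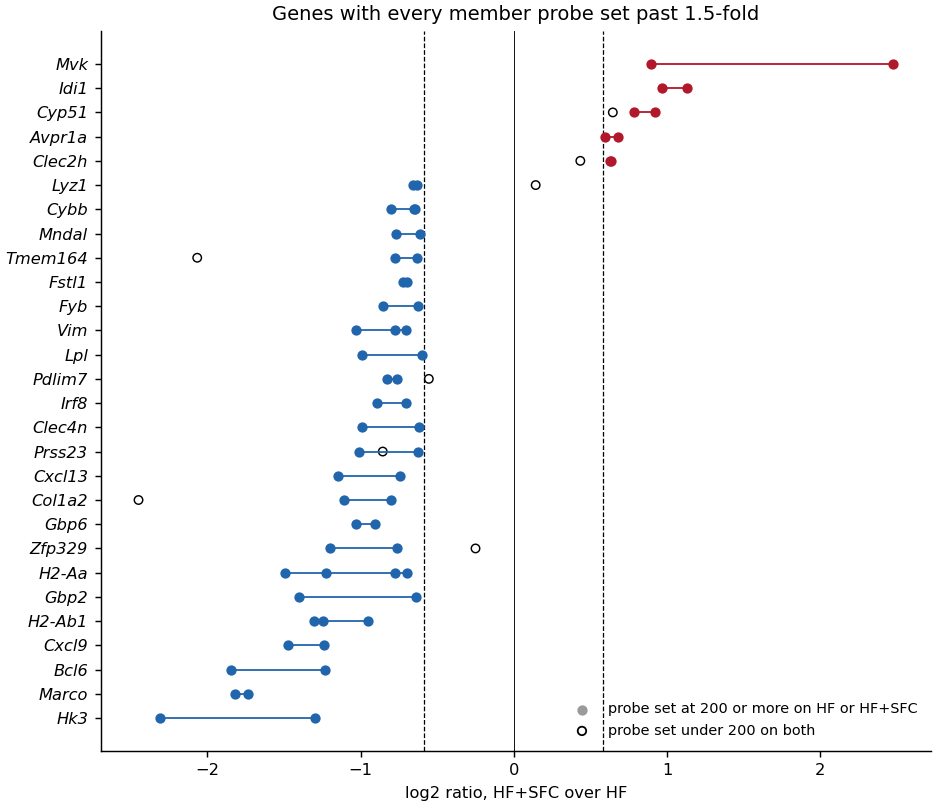
Log2 ratio of HF+SFC over HF (horizontal axis) of each probe set of the 28 genes whose probe sets at 200 or more all passed 1.5-fold (dashed lines) in one direction, with open circles for probe sets under 200 on both arrays. The 2 probe sets of Marco lie close together, whereas those of Mvk and Hk3 lie far apart.

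Nearly all genes of cholesterol synthesis had ratios above 0, and many were higher in HF+SFC. Of 23 enzymes listed, 20 had a probe set in the comparison. Of these 9 were higher, against 1.4% of all genes, and none lower, 19 had a ratio above 0, and the median log2 ratio was 0.54, against 0 for all genes. The same count of 9 higher and 0 lower was found under each of the 3 other scalings. Mevalonate kinase (Mvk), which phosphorylates mevalonate, had the largest ratio. Its first probe set read 113, 267 and 497, a log2 ratio of 0.90 for HF+SFC over HF, and its second read 27.1, 57.9 and 322, a log2 ratio of 2.48. The second probe set was far below 200 in HF, so that the difference between the probe sets was larger than any other among the higher genes with agreement. Isopentenyl diphosphate isomerase (Idi1) makes the activated isoprene unit. Its probe sets read 589, 1571 and 3077 and 1059, 2648 and 5798, with log2 ratios of 0.97 and 1.13. Lanosterol demethylase (Cyp51), a heme enzyme that removes the first methyl group of the sterol nucleus, read 445, 746 and 1288 and, by its other probe set, 888, 1278 and 2418, with log2 ratios of 0.79 and 0.92. In all 3 genes the HF array lay between the Control and HF+SFC arrays by every probe set.

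Several enzymes of the pathway were read by 1 bright probe set. Dhcr7, which reduces 7-dehydrocholesterol to cholesterol, had signals of 603, 836 and 2035, a log2 ratio of 1.28. The methylsterol oxidase Msmo1, an iron-dependent enzyme, read 594, 3551 and 7423 (1.06), and squalene epoxidase (Sqle) read 232, 901 and 1848 (1.04). For each of these genes HF+SFC was the highest of the 3 arrays. The sterol reductase Tm7sf2 read 3936, 3912 and 6450.0 (0.72) and the dehydrogenase Nsdhl 1159, 1786 and 2893 (0.70). Mevalonate diphosphate decarboxylase (Mvd) passed by its median of 0.76, but its probe sets differed, at 0.21 and 1.31. Other steps lay inside the threshold by their medians, some of them near 0, such as Sc5d with a median of 0.08 and Lbr with 0.06. HMG-CoA synthase (Hmgcs1), the entry enzyme of the mevalonate route, had 4 probe sets with log2 ratios of 0.47, 0.33, 0.35 and 0.49, the brightest of them at 11972 in HF and 15284 in HF+SFC. Squalene synthase (Fdft1) had 0.57 and 0.55, farnesyl diphosphate synthase (Fdps) 0.53, and Hsd17b7 0.55, 0.38 and 0.52. Ggps1, which leads from the pathway towards geranylgeranylated proteins and not to sterols, was the single member below 0, with a median of -0.24 and probe sets between -0.68 and 0.20. Summed over the brightest probe set of each enzyme on the array, the signal was 49642, 68657 and 98915, a ratio of 1.44 for HF+SFC over HF.

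**Figure D3:**
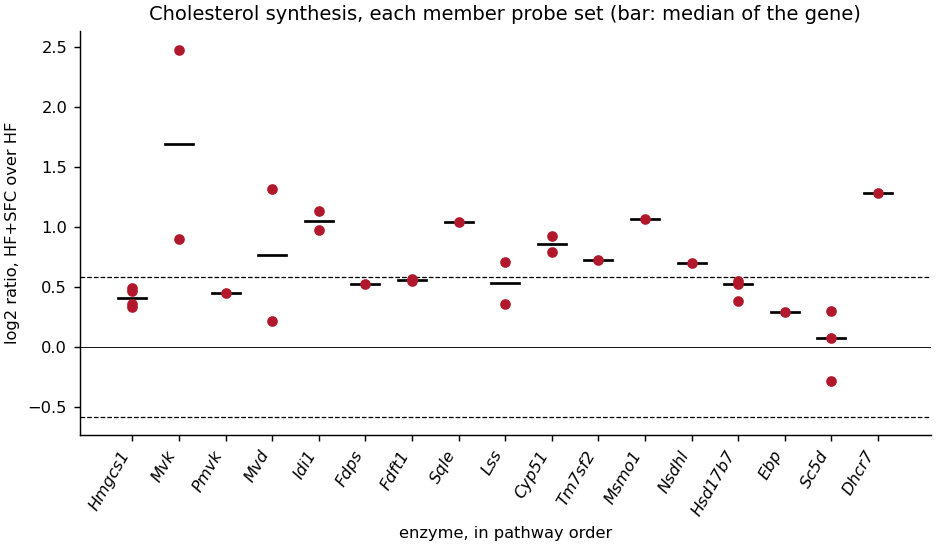
Log2 ratio of HF+SFC over HF (vertical axis) of each probe set of 17 enzymes of cholesterol synthesis, arranged from the start of the mevalonate route to cholesterol, with a bar at the median of the gene and dashed lines at 1.5-fold. Every enzyme has its median above 0, and the probe sets of Mvk, Mvd and Sc5d spread most.

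The promoters of the cholesterol synthesis list were searched for the motifs of its regulators. SREBP-2 acts at many of its promoters together with NF-Y, a factor that binds the pentamer CCAAT. In the 250 bases before the start of the gene (RefSeq, build GRCm38.p6), CCAAT was found on either strand in 16 of the 17 cholesterol synthesis genes with an entry (94.1%), against 40.4% of 7514 genes with a probe set in the comparison and 37.5% of all 27025 genes in the table, where a gene counts if any of its listed starts has a match. Fdps, Fdft1 and Sqle had no entry. The SREBP motif TCACNCCAC, searched in these letters on both strands, was found in 1 of the 17 (5.88%), against 1.36% of genes in the comparison. A match describes the letters in this window and is neither a site shown to be bound nor a cause. Since the list is a pathway that these factors are known to control, its share describes the list and not the ratios. The promoters of Mvk, Idi1 and Cyp51 are shown because both probe sets of each gene were higher, and those of Dhcr7 and Msmo1 because these genes had the largest ratios among the enzymes read by 1 bright probe set. The log2 ratios of the 5 genes were 1.69, 1.05, 0.85, 1.28 and 1.06. The windows lie at chr5:114444019-114444268 (plus strand), chr13:8885356-8885605 (plus), chr5:4104698-4104947 (minus), chr7:143829964-143830213 (plus) and chr8:64733579-64733828 (minus). Dhcr7 has 3 listed starts, of which the one shown holds the matches and the other two hold none. All are 250 bases long and are written 5′ to 3′ in the direction of the gene with CCAAT, or ATTGG where it is on the other strand, in capitals.
Mvk: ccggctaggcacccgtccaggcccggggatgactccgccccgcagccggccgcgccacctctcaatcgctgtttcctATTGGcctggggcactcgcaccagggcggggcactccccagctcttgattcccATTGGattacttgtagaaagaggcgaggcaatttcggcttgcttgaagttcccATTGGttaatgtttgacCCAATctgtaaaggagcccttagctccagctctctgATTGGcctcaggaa
Idi1: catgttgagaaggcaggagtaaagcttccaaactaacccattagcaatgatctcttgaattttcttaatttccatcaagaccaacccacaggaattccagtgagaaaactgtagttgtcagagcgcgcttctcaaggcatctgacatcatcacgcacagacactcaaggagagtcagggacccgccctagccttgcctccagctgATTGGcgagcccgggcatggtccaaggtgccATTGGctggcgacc
Cyp51: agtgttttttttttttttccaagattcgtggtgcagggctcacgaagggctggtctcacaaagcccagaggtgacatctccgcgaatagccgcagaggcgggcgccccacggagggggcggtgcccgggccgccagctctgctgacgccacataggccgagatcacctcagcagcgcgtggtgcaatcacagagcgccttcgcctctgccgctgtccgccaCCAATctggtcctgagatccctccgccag
Dhcr7: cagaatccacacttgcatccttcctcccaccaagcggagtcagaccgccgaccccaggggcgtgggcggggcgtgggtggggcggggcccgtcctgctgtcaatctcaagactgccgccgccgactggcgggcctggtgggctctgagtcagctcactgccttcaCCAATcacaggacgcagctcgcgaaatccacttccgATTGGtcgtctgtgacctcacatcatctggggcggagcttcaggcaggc
Msmo1: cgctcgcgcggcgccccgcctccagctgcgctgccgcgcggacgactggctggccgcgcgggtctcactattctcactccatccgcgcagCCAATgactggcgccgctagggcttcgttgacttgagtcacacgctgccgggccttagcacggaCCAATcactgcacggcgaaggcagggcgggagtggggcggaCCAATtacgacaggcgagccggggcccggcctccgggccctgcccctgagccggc
Mvk holds 5 matches, which begin 173, 120, 67, 50 and 14 bases before the start. Msmo1 holds 3, at 160, 96 and 55, Idi1 holds 2, at 45 and 14, Dhcr7 holds 2, at 85 and 49, and Cyp51 holds 1, at 29.

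Genes that control, import or export sterols had no member higher. Of 19 listed members in the comparison 2 were lower, against 3.2% of all genes, and the median log2 ratio was 0.05. The lower genes were Abcg1, a sterol exporter that is switched on by oxysterols through LXR, with signals of 412, 713 and 459.6 and a log2 ratio of -0.63, and the oxysterol-binding protein gene Osbpl3, with -0.53 and -0.83 by its 2 probe sets. Abca1 and Mylip, further LXR targets, had ratios below 0 inside the threshold by their medians. Other LXR targets were near or above 0, with 0.02 for the sterol exporter gene Abcg5, -0.06 for Abcg8 and 0.34 for Srebf1. Abca1, which loads cholesterol onto apolipoprotein A-I, had -0.48, -0.24 and -0.54, and Mylip, a ligase that sends the LDL receptor to degradation, had -0.44. Cholesterol 7α-hydroxylase (Cyp7a1), which sets the rate at which bile acids are made, read 187, 1057 and 1343 and, by its brighter probe set, 595, 3679 and 5467, with log2 ratios of 0.34 and 0.57. Sterol 12α-hydroxylase (Cyp8b1) had 0.31 and the steroid reductase Akr1d1 0.28 and 0.30, while Nr0b2, the repressor of Cyp7a1 that bile acids induce, had -0.55 with signals of 2707, 2091 and 1425. None of the 22 bile acid genes passed 1.5-fold, and 17 had ratios above 0 (median 0.08).

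Most MHC class II genes were lower in HF+SFC. These genes present peptides to helper T cells and are found in macrophages, dendritic cells and B cells. Of 7 members in the comparison 5 were lower, against 3.2% of all genes, none was above 0, and the median log2 ratio was -0.999. The β chain H2-Ab1 had 3 probe sets, with signals of 198, 609.8 and 257, of 859, 1531 and 790.1 and of 456, 1202 and 486. Their log2 ratios were -1.25, -0.95 and -1.31, and on each probe set HF was the highest of the 3 arrays. The α chain H2-Aa had 4 probe sets with log2 ratios from -1.49 to -0.69, the brightest at 3704, 5820.2 and 3404. The invariant chain Cd74, which guides class II molecules to the endosome, read 1557, 3202 and 1483 (-1.11), and H2-Eb1 read 1345, 2347 and 1066 (-1.14). The peptide-loading subunit H2-DMa was lower at -0.74, with 331 in HF and 199 in HF+SFC, and entered through HF alone. Cathepsin S (Ctss) and Ifi30, which process antigen and are also made by other cells, had -0.10 and -0.36. Of the 14 genes of MHC class I presentation none passed 1.5-fold, with a median of -0.08. The class I heavy chain H2-D1 had 5 probe sets between -0.22 and -0.14, and the immunoproteasome subunits Psmb8 and Psmb9 had -0.41 and -0.28.

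Chemokines and interferon-inducible genes were lower in part. Of 15 chemokine and adhesion genes in the comparison 7 were lower (5 after quantile normalisation or lowess), against 3.2% of all genes, and none higher, with a median log2 ratio of -0.44, which was -0.28 after lowess and -0.08 when a probe set had to reach 200 on both arrays. Of these genes 11 lay below 0 and 4 above, the largest ratio being 0.41. Ccl5, which draws T cells and is made by them, read 293, 754 and 146, and its log2 ratio of -2.37 was the lowest in the list. Cxcl9 and Cxcl10, ligands of the chemokine receptor CXCR3 that are induced by interferon-γ, read 939, 3012 and 1084 (-1.47) and 179.7, 541 and 199 (-1.44). The second probe set of Cxcl9 had -1.24, and like that of Cxcl10 it entered through HF alone. Cxcl13, which draws B cells, had -1.15 and -0.74 from signals of 259 and 259 in HF, and both probe sets entered through HF alone. The adhesion molecule Vcam1 had probe sets that disagreed, at -0.68, -0.44 and 0.999, the last of them the dimmest. Of 21 interferon-inducible genes 6 were lower (against 3.2% of all genes), none higher and 18 below 0, with a median of -0.39, and 6 were lower under each other scaling. Cxcl9 and Cxcl10 belong to both lists. Gbp2 had -1.40 and -0.64, Gbp6 -0.91 and -1.03, and Igtp, a GTPase that acts on vacuoles of intracellular parasites, read 2484, 4492 and 2669 (-0.75). Irf8, a factor that myeloid cells need to develop, belongs to no list and is named for the agreement of its probe sets. It was lower by both probe sets (-0.70 and -0.89) but not by both after lowess. They read 132, 234 and 144 and 194, 294 and 159. Both entered through HF alone and so had to lie below 0.

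The promoters of the interferon and chemokine lists were searched for the interferon response motif. A pair of GAAA repeats with any 2 bases between them, the core of an interferon-stimulated response element (ISRE), was found on either strand within 250 bases before the start in 11 of the 17 interferon-inducible genes with an entry (64.7%), against 3.22% of the genes in the comparison and 3.46% of all genes in the table. In the chemokine list it was found in 1 of 11 genes with an entry (9.09%). Since the interferon list was drawn up from genes known to respond to interferon, its share describes the list and not the ratios. Of the lower genes named above, Gbp2, Igtp, Cxcl10 and Cxcl9 are shown, with medians of -1.02, -0.75, -1.44 and -1.36. Their windows lie at chr3:142620413-142620662 (plus strand), chr11:58199306-58199555 (plus), chr5:92348890-92349139 (minus) and chr5:92328080-92328329 (minus), with matches in capitals.
Gbp2: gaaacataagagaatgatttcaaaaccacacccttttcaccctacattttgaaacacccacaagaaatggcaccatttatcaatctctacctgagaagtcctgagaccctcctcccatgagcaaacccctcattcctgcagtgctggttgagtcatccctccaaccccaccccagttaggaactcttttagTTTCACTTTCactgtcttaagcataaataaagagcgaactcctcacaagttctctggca
Igtp: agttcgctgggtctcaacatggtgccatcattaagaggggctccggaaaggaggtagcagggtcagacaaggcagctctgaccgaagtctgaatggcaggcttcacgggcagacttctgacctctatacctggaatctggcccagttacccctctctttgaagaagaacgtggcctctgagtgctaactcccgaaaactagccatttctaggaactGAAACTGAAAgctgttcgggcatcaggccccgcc
Cxcl10: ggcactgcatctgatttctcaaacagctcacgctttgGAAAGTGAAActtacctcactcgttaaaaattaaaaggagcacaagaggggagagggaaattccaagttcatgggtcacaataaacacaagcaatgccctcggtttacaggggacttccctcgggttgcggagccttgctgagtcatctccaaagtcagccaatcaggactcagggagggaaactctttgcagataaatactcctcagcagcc
Cxcl9: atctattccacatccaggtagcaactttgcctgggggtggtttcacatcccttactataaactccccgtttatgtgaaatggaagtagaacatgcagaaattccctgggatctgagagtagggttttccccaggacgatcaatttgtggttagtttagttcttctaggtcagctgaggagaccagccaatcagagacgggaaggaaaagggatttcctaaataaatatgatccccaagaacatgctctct
The match in Gbp2 begins 59 bases before the start and lies on the other strand. The match in Igtp begins 34 bases before the start and that in Cxcl10 begins 213. Cxcl9 holds no match, which says only that these letters are not in this window, and Gbp6 had no entry.

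All macrophage markers in the comparison had ratios below 0, and some were lower. Of 25 Kupffer cell and macrophage markers in the comparison 7 were lower (5 after quantile normalisation or lowess, 6 after median centring), against 3.2% of all genes. All 25 lay below 0, against 50.4% of all genes, and the median log2 ratio was -0.38. Marco read 319, 714 and 202 and, by its second probe set, 126, 448 and 135, with log2 ratios of -1.82 and -1.73. The HF array stood above both others on each probe set. The complement subunit C1qc, made by resident macrophages, read 1859.7, 2653 and 1729.5 (-0.62). The signalling adaptor Tyrobp had -0.69, the lysosomal protein Cd68 -0.60 and the lectin Lgals3 -0.61. Outside the list, Cybb, the heme-binding subunit of the phagocyte oxidase, was lower by 3 probe sets at -0.65, -0.80 and -0.64, and the dendritic and macrophage lectin Clec4n by 2, at -0.62 and -0.99. The lysozyme gene Lyz1 had -0.63 and -0.66, though its probe sets can also read the near-identical Lyz2. Of these 3 genes Clec4n is named for the agreement of its probe sets, whereas Cybb and Lyz1 fell outside the rule for naming genes and were chosen after their values were seen. The summed signal of the brightest probe set of each of the 32 markers on the array was 36898, 47619 and 36571.

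Markers of stellate cells and matrix were lower in part. Of 26 in the comparison 7 were lower (6 after quantile normalisation or lowess), against 3.2% of all genes, none was higher and 24 were below 0, with a median log2 ratio of -0.34. The collagen chain Col1a2 had signals of 623, 1577 and 905 by its brighter probe set (-0.80) and 114, 247 and 115 by the other (-1.11). Col3a1 read 877, 2851 and 1685 (-0.76). HF was again the highest array for both collagens. Smooth-muscle actin (Acta2), which activated stellate cells make, read 565, 1041 and 536 (-0.96), and Vim had 3 probe sets at -1.03, -0.70 and -0.78. Desmin (Des), a defining stellate cell gene, had -1.57 from a single probe set that read 253 in HF and 84.9 in HF+SFC and so entered through HF alone. Summed over the 30 markers on the array, the signal was 37007, 54032 and 42868.

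Endothelial and lymphocyte markers mostly lay below 0 as well. None of 25 endothelial markers passed 1.5-fold, 22 were below 0, and the median was -0.22. The lymphatic and sinusoidal receptor Lyve1 had -0.65 and -0.29, and Oit3, a gene of liver endothelium, had -0.52. Of 24 lymphocyte markers, 14 of the 22 on the array were under 200 in both groups. Of the other 8, 4 were lower, against 3.2% of all genes, and all were below 0, against 50.4% (median -0.56). The lower ones were Ccl5, Ptprc (the pan-leukocyte antigen CD45, 1094 in HF and 607 in HF+SFC, -0.85), Cd52 (1332 in HF and 803 in HF+SFC, -0.73) and the leukocyte GTPase Rac2 (283 in HF and 165 in HF+SFC, -0.78). Ccl5 and Rac2 entered through HF alone. The summed signal of the 22 on the array was 3651, 6397 and 4044. A marker that reached 200 in HF alone had to lie below 0, so that the count over these dim markers is a description of those that entered. Neutrophil markers were mostly under 200, with 3 of 12 in the comparison. Of these 1 was higher, against 1.4% of all genes. This was Csf3r (131 in HF and 215 in HF+SFC, 0.71), which entered through HF+SFC alone. S100a8 (-0.40), which entered through HF alone, and Lcn2 (-0.54) lay below 0. No marker of any list is at 0 in these files, since MAS5 gives a positive signal to every probe set. Hepatocyte identity genes, by contrast, had a median log2 ratio of 0.04 (-0.01 after lowess), with none of 21 past 1.5-fold and a summed signal ratio of 1.01. The sums of macrophage, stellate cell, lymphocyte and MHC class II markers had ratios of HF+SFC over HF of 0.768, 0.793, 0.632 and 0.631. Those of the chemokine and interferon lists had 0.878 and 0.813. Some genes stand in more than 1 of these lists, such as Ccl5 and Ctss. The part of cell numbers in those results was not tested.

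**Figure D4:**
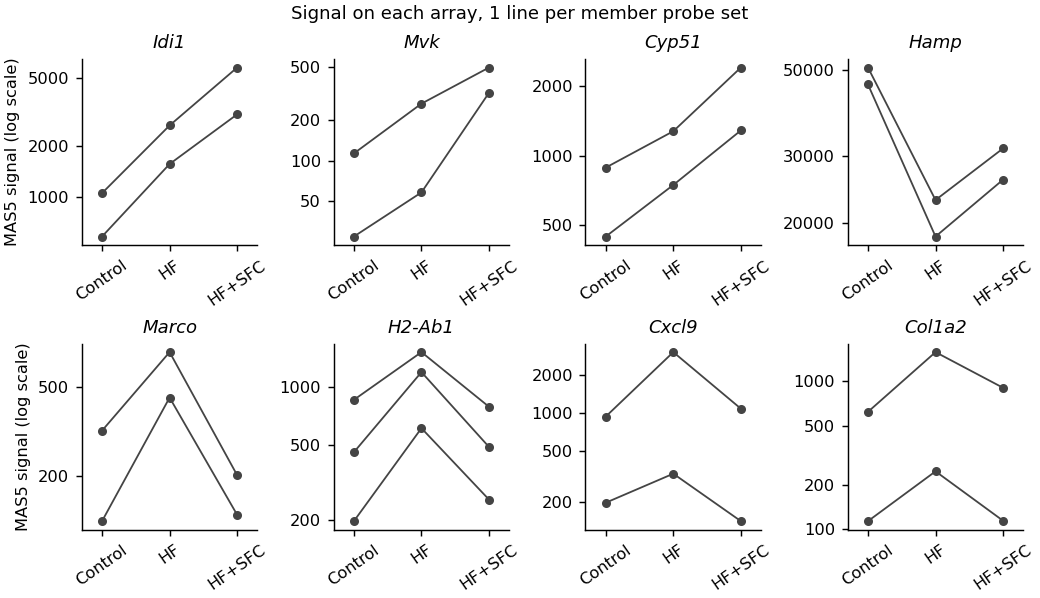
MAS5 signal (vertical axis, log scale, different for each panel) on the Control, HF and HF+SFC arrays for 8 genes, with 1 line per probe set in the comparison. Idi1, Mvk and Cyp51 are highest in HF+SFC, Hamp is lowest in HF, and Marco, H2-Ab1, Cxcl9 and Col1a2 are highest in HF.

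The HF array is shared by this comparison and by that of HF with Control, so that a signal that happened to be high in HF gives a low ratio here and a high one there. The Control signals are therefore given side by side with the other 2 and no relation between the comparisons was computed.

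Genes of iron sensing and handling showed no difference past 1.5-fold. Hepcidin (Hamp) read 50840.0, 22982 and 31316 and, by its second probe set, 45934, 18463 and 25967, with log2 ratios of 0.45 and 0.49. Its paralog Hamp2, which shares sequence with it, read 12785, 9514 and 12319.8 (0.37). These ratios were inside 1.5-fold, and HF+SFC lay between HF and Control on all 3 probe sets. The other targets of BMP-SMAD signalling were closer to 0. Id1 read 1298, 444 and 510.4 (0.20), Smad7 had -0.17 and Smad6 -0.13, and Id3 had 0.03 with signals of 4004, 1262 and 1286. The receptors and sensors Tfr2 (0.13 and 0.03), Hjv (0.13 and 0.03), Bmpr1a (between -0.09 and 0.06) and Acvr1 (-0.01), and the protease Tmprss6 (-0.13), which cuts hemojuvelin and so restrains hepcidin, were all near 0. Over the 21 members 9 lay above and 12 below 0, and the median was -0.01, or 0.01 after quantile normalisation.

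Transport and storage genes were as close. Transferrin receptor 1 (Tfrc), whose mRNA is stabilised by iron regulatory proteins when iron is scarce, read 947, 1192 and 1014 (-0.23). Ferritin heavy chain (Fth1), which iron controls mainly through translation, had -0.02 and -0.07, ferroportin (Slc40a1) -0.08 and -0.14, and the zinc and iron importer Slc39a14 had 4 probe sets between -0.04 and 0.17. Lipocalin 2 (Lcn2), which binds bacterial siderophores and is an acute phase protein, had the ratio farthest from 0, at -0.54, with signals of 248, 3022 and 2076. Among 22 members 10 lay above and 12 below 0. Heme genes (21 in the comparison) and iron-sulfur cluster assembly genes (24) also had none past 1.5-fold, with medians of 0.02 and 0.07. Abcb10, a mitochondrial transporter needed for heme synthesis, had 0.30 and 0.25, and Tmem14c, which also serves heme synthesis, had 0.22. The cytosolic iron-sulfur assembly gene Ciao3 had 0.46, the scaffold Iscu -0.28 and ferredoxin 1 (Fdx1) 0.26. Among the 18 liver genes singled out by the study, by qRT-PCR or for their part in heme and iron-sulfur synthesis, none passed 1.5-fold and 15 lay above 0 (median 0.07). Coq10a, a coenzyme Q binding protein of mitochondria, had 0.46, Rsad1, a relative of heme synthesis enzymes, 0.35, and carnitine palmitoyltransferase Cpt1a 0.21, -0.08 and 0.27. The 3 below 0 were Ppox (-0.12), Bola1 (-0.01) and Cox10 (-0.05 by its median). The study counts Ppox, Bola1 and Rsad1 among mitochondrial genes raised at least 1.5-fold in liver and skeletal muscle. It reports Cox10 as raised by qRT-PCR. Why the values here differ was not tested.

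No listed gene of respiratory complexes I to V or of the mitochondrial ribosome passed 1.5-fold. None of 33 complex I subunits passed 1.5-fold, 29 lay above 0, and the median was 0.07 (0.02 after quantile normalisation). Ndufb7 had the largest, 0.20 and 0.32, and the iron-sulfur subunits Ndufs1, Ndufv2 and Ndufs7 had gene ratios of 0.19, 0.16 and 0.15. For complexes II to V and cytochrome c, 32 of 38 lay above 0 with a median of 0.07, which was 0.02 after quantile normalisation and 0.03 after lowess. Uqcr11 of complex III had 0.27 and the Rieske iron-sulfur protein Uqcrfs1 0.13. Of 74 mitochondrial ribosomal proteins 57 lay above 0, with a median of 0.13. Mrpl17 read 3279, 2906 and 3754 (0.37) and Mrpl12 4459.5, 3831 and 4828 (0.33). The median was 0.10 for 31 proteasome subunits (28 above 0) and 0.11 for 48 genes of the urea cycle and amino acid breakdown (40 above 0). It was 0.09 for 28 cytosolic ribosomal proteins (23 above 0), of which 2 dim ones were lower, against 3.2% of all genes. These were Rpl14 (-1.22) and Rps27 (-0.80), and both entered through HF alone. Aspartate aminotransferase (Got1) read 10328, 7731 and 10918 (0.50) and Agxt, which disposes of glyoxylate, 9835, 7238 and 9231 (0.35). Of all genes 49.6% lay above 0. Genes of one complex are not independent, and no direction is claimed from medians of this size.

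**Figure D5:**
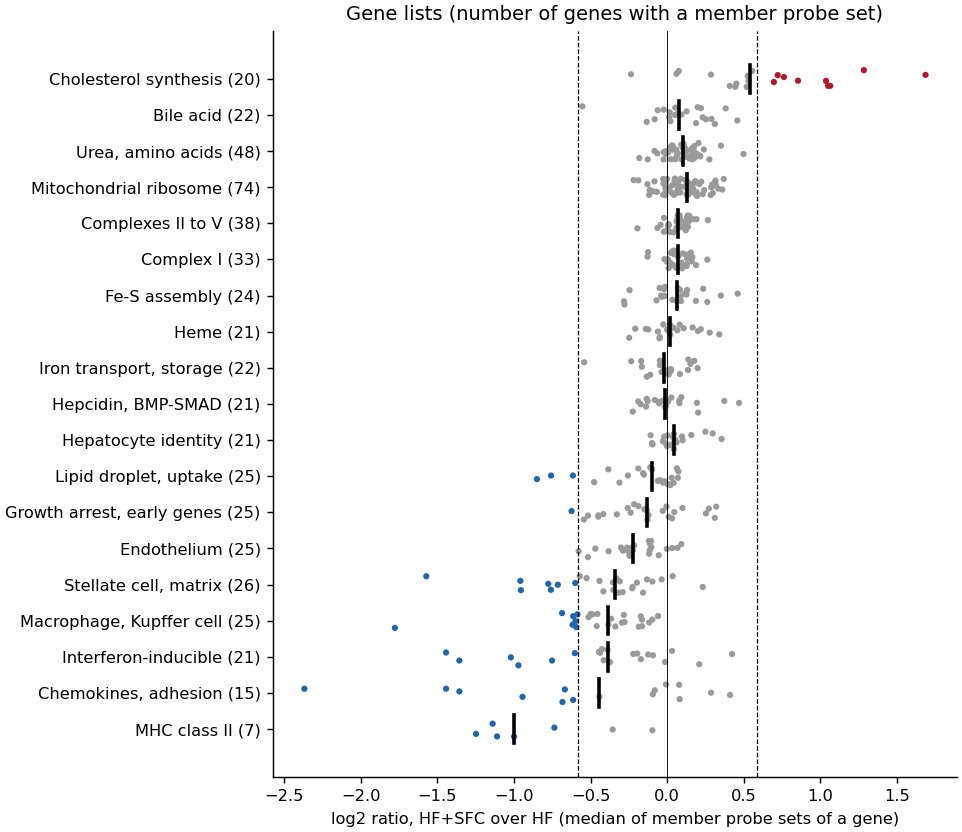
Log2 ratio of HF+SFC over HF (horizontal axis) of each gene with a probe set in the comparison for 19 gene lists, with the number of genes in brackets, a black bar at the median of the list and dashed lines at 1.5-fold. Coloured points are genes past 1.5-fold, and they gather in cholesterol synthesis on the right and in the immune and stellate cell lists on the left.

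A few genes of fat storage were lower. Of 25 lipid droplet and fatty acid uptake genes 3 were lower (2 after quantile normalisation or lowess), against 3.2% of all genes, none was higher, and the median was -0.10. Cidea and Cidec, which fuse lipid droplets in fat cells and in fatty liver, read 3.81, 897 and 498 (-0.85) and 372, 988 and 584 (-0.76). The lipoprotein receptor Vldlr read 118, 427 and 279 (-0.62). On each of these the HF+SFC array lay between Control and HF. The fatty acid translocase Cd36 had 3 probe sets that lay close together, at -0.41, -0.38 and -0.35, the brightest with 895, 5631 and 4315, and Fabp4 had -0.37 and -0.58. Lipoprotein lipase (Lpl), little expressed in adult hepatocytes, read 1255, 2123 and 1400.5 (-0.60) and 118, 386 and 194 (-0.99). Fatty acid synthesis genes had a median of -0.04, with 1 of 23 lower, a share near the 3.2% of all genes. This was Scd2, a desaturase, at 306 in HF and 115 in HF+SFC (-1.41), which entered through HF alone. Srebf1, which encodes SREBP-1, had 0.34 and acetyl-CoA carboxylase (Acaca) had -0.49. The main liver desaturase Scd1 had -0.07 by its brighter probe set and -0.51 by the other, which read 9457 in HF and 6623 in HF+SFC. Among 21 PPARα targets 1 was lower, a share near the 3.2% of all genes, and the median was -0.03. The lower one was Cyp4a12a (5337 in HF and 3196 in HF+SFC, -0.74). Of 25 genes of mitochondrial fatty acid oxidation 19 lay above 0. The median was 0.06, or 0.004 after quantile normalisation and 0.02 after lowess. Cpt2 passed by its median, but its bright probe set had 0.11 and a dim one 1.18.

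Bcl6 had the lowest ratio of the genes with a probe set at 2000 or more. It encodes a repressor that in liver opposes the growth hormone factor STAT5 and the fasting receptor PPARα. Its probe sets read 928, 2009 and 557 (-1.85) and 276, 519.8 and 221 (-1.23), and HF was the highest array on both. Of 22 genes of the growth hormone, STAT5 and BCL6 axis 2 were higher and 4 lower, against 1.4% and 3.2% of all genes, with a median of 0.04. The male-biased steroid dehydrogenase Hsd3b5 was higher at 7279, 3355 and 5754 (0.78). The organic anion transporter Slco1a1, also male-biased, had 0.34 and 0.43, inside the threshold, whereas Cyp4a12a, male-biased too, was lower. The female-biased repressor Cux2 (288 in HF and 159 in HF+SFC, -0.86) was lower. Igfbp3, which carries IGF-1 in blood, passed by its median of -0.64, with -0.71 and -0.56.

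Hormone and clock genes gave scattered differences. Avpr1a read 783, 352 and 531 (0.59) and 1001, 389 and 625 (0.68), and the uridine phosphorylase Upp2 1544, 7243 and 10825 (0.58) and 1139, 4327 and 6641 (0.62). Both were counted among 23 clock output genes, of which 2 were higher, against 1.4% of all genes, and none lower. Among 14 core clock genes none passed 1.5-fold. Arntl, which encodes BMAL1, had 0.49 and Per1 -0.45. Of 22 genes of glucose output and insulin response 1 was higher, against 1.4% of all genes, and this was the insulin receptor substrate Irs2, at 500.2, 151 and 301 (0.997), which entered through HF+SFC alone. The median of the list was -0.06. Adropin (Enho), a secreted peptide, was higher by its median of 0.79, with probe sets at 1.03 and 0.54. Igfbp2 read 15262, 5054 and 7142 (0.50). Trefoil factor 3 (Tff3), a mucosal peptide listed among bile duct markers, read 1290.2, 151 and 515 (1.77), while the other 4 bile duct markers in the comparison, among them Krt8 and Krt18, had ratios between -0.23 for Cdh1 and 0.14 for Krt8.

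Metal, acute phase and stress genes stayed largely inside 1.5-fold. The metallothioneins Mt1 and Mt2, which bind zinc and copper and are also induced by glucocorticoids, read 2103, 11427 and 16187 (0.50) and 842, 4399 and 6556 (0.58), both inside 1.5-fold. Serum amyloid A1 (Saa1), which shares sequence with its paralogs, had 0.46 and 0.55, and Saa3, made mainly by macrophages, had -0.52. None of 25 acute phase genes, 23 antioxidant and metal genes or 35 complement and coagulation genes passed 1.5-fold. In the heat shock list 2 of 19 were lower (1 after quantile normalisation or lowess), against 3.2% of all genes. They were the small chaperones Cryab (-0.63), which did not pass after either scaling, and Hspb1 (-0.56 and -0.70). Hspa1b had -0.63, -0.58 and -0.48, inside the threshold by its median. Of 25 genes of growth arrest, p53 response and early response 1 was lower, a share near the 3.2% of all genes. After quantile normalisation or lowess 0 were lower. The 1 lower gene was the immediate early gene Fos (337 in HF and 219 in HF+SFC, -0.62), and Egr1 and Jun had medians of -0.54 and -0.52. Of 28 genes of the endoplasmic reticulum and integrated stress responses 1 was higher, against 1.4% of all genes. In the same list 1 was lower (0 after quantile normalisation or lowess), against 3.2% of all genes, and the median was 0.002. The higher one was asparagine synthetase (Asns), a target of the amino acid response, at 118 in HF and 215 in HF+SFC (0.87). It entered through HF+SFC alone. Among drug-metabolising enzymes Cyp2c54 was higher at 6980.1, 7066 and 11646 (0.72), and the glutathione transferase Gstm3 was lower by its median of -0.62, though probe sets of both families can read close relatives.

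Some of the largest ratios rest on 1 probe set or on probe sets that disagree. Among genes read by 1 probe set at 200 or more on both arrays, Sec24b, which encodes a coat protein of transport vesicles, had 203 in HF and 655 in HF+SFC (1.69), and a further Sec24b probe set under 200 lay on the other side of 0, so that with a minimum of 100 the median of the gene was 0.47. Plakoglobin (Jup) read 544, 270.1 and 569 (1.08). At the other end BC023105, a gene without an assigned function, read 131, 911 and 277 (-1.72), the imprinted gene Plagl1 290.0, 668 and 333 (-1.01), and Ifi27l2b 131, 418 and 211 (-0.99). In 7 genes probe sets passed 1.5-fold in opposite directions. The autophagy gene Atg7 had -0.89, 2.11 and 0.07, and the kinase gene Taok1 had 5 probe sets from -2.82 to 0.63, of which the 3 brightest lay between -0.29 and -0.09. Of the genes past 1.5-fold, 21 higher and 54 lower ones belonged to any of the 51 lists, and 23 lists had no member past the threshold.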

How the data were processed

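The authors hybridised biotin-labelled cRNA of 3 pooled liver samples to Affymetrix mouse genome arrays, and deposited MAS5 signals per the labels, which are intensity values on a linear scale. No source used here names the MAS5 version. The 2% trimmed mean was 500.004 on each array, so differences in total signal had been removed before deposit, and median signals were 81.7 (Control), 87.3 (HF) and 80.4 (HF+SFC). Of 45037 probe sets other than 64 controls, 34945 named 1 gene in the platform annotation, 932 named several and 9160 were not listed. Entrez IDs of 34741 were found in RefSeq (GRCm38.p6). Some genes were not analysed here.

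Ratios were computed with Python 3.11.15 (pandas 2.3.3, numpy 2.4.6, statsmodels 0.14.6). Probe sets at 200 or more on at least 1 of the 2 arrays were kept, a gene was the median of its probe sets, and 1.5-fold, as in the study, was the threshold. No test was run, because each group had 1 array, whose number limits the precision. The steps were tested on simulated data. Alternatives were quantile, median and lowess (fraction 0.3) scaling, minimums of 100, 500, 200 on both arrays and none, a pseudocount of 16, leaving out probe sets with the suffix _x_at or _s_at, the brightest probe set of a gene, and 2-fold. Genes were named where all probe sets agreed (at most 20 in each direction), as the 5 highest and 5 lowest with a signal of 2000 or more or with 1 probe set, as up to 5 members of a list with the largest ratio, as any member of the hepcidin, iron transport, cholesterol synthesis and MHC class II lists, as up to 5 genes whose probe sets oppose each other, and as genes the study assayed by qRT-PCR. The comparison, the 51 gene lists and this rule were chosen with earlier results of these data known. Promoters came from RefSeq, which had an entry for 7514 of the 9147 genes.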

Additional observations from a re-analysis of the deposited data

How the results depend on the processing

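The counts depended on the signal minimum and the scaling. In the order probe sets, genes and genes with agreement, higher ones numbered 470, 212 and 9 after lowess, 989, 415 and 12 at a minimum of 100, 81, 42 and 3 at 500, 7276, 2448 and 166 without a minimum, and 54, 27 and 0 at 2-fold. Lower ones numbered 362, 168 and 15 after lowess, 1888, 773 and 48 at 100, 147, 85 and 8 at 500, 9680, 3210 and 268 without a minimum, and 124, 52 and 4 at 2-fold. With 200 required on both arrays, 126 probe sets and 52 genes were higher, and 258 probe sets, 122 genes and 11 genes with agreement were lower. Leaving out probe sets with the suffix _x_at or _s_at gave 12 lower genes with agreement. Of the 28 genes with agreement, 15 still had it with 200 on both arrays and 11 at 500.

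Among list medians, complex I moved to 0.0213 under quantile normalisation, complexes II to V to 0.0247 there and 0.0317 under lowess, and MHC class II to -0.89 under lowess and -0.77 by the brightest probe set. The macrophage list moved to -0.47 at 100 or without a minimum and to -0.46 at 500. The chemokine list moved to -0.28 under lowess, -0.33 at 500, -0.0808 with 200 on both arrays, -0.32 without a minimum and -0.55 without the suffixed probe sets. The proliferation list changed sign, to 0.0818, at 500. The median sign of 10 of the 51 lists differed under at least 1 scaling, all of them near 0. Of 2959 ratios of 308 named genes under the alternatives, 2864 moved by less than the spread between probe sets, 94 moved by more, and Ptprc changed sign, to 0.68 without a minimum, where its dim probe sets enter. The cause of the other shifts was not tested. A gene with 1 probe set on the array could not change its ratio with the signal minimum. Genes that dropped out under an alternative were not counted. The count of 2864 was therefore partly fixed in advance. No paired analysis was possible because each group had 1 array. The spread within a gene was 0.36 under a signal of 500, and with 1 array per group no difference has a replicate check.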
